A study of Rattus norvegicus with 26 samples.

Results

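The aryl hydrocarbon receptor gene Ahr and the gene of its dimer partner, Arnt, were followed over all 26 arrays of a dose series in rat hepatocytes. The members were all probe sets that the platform's probe-to-gene table assigned to Ahr alone or to Arnt alone, which gave 6 of the 8799 probe sets on the array, for 2 of the 4736 genes named alone by a probe set. Ahr had 4 of them (AF082124_s_at, AF082125_s_at, AF082126_at and U04860_at) and Arnt had 2 (U08986_s_at and U61184_at). Probe sets whose names end in _s_at can share sequence with other transcripts, so their assignment is less certain.

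Primary hepatocytes of female Sprague Dawley rats, in 2 pools of 3 animals each, were cultured for 48 hours with vehicle (0.5% DMSO), TCDD or PCB 126, and total RNA was measured on Affymetrix RG-U34A arrays. TCDD, a chlorinated dioxin, was given at log10 molar doses of -14, -12, -11, -10, -9, -8 and -6.5, and PCB 126, a dioxin-like polychlorinated biphenyl, at -12, -11, -10, -9, -8, -6 and -5. The vehicle and 10 of the doses had 1 array of each pool, while the doses -11 and -9 of both chemicals had an array of pool 2 only, so that pool 1 had 11 arrays and pool 2 had 15. Doses are written below as log10 of the molar concentration. The age of the animals was not given in the sources used here, no genotype was altered, and every array is of cells from pooled animals, with each pool 1 biological unit.

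AHR is a transcription factor of the bHLH-PAS family that waits in the cytoplasm in a complex with the chaperone HSP90. When a ligand such as TCDD binds, it moves into the nucleus, pairs with ARNT and binds xenobiotic response elements, whose core is GCGTG, in genes such as Cyp1a1, a cytochrome P450 of xenobiotic metabolism. ARNT is shared with other bHLH-PAS proteins, among them the hypoxia factor HIF1A, and in liver the AHR pathway is best known for inducing drug-metabolizing enzymes.

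The sequences just upstream of both genes are shown because 2 probe sets of the receptor's own gene rose with dose while no Arnt probe set did. They are the 250 bases before the annotated start of each gene, taken from RefSeq on the build GRCr8, with any copy of 4 motifs in capitals: GCGTG (the core bound by AHR with ARNT), ACGTG (the core bound by HIF factors with ARNT), GGGCGG (the GC box) and TATAAA (the TATA box), each searched on both strands. Ahr lies on the minus strand of chromosome 6 (57961423 to 57998901) and Arnt on the plus strand of chromosome 2 (185686703 to 185745546).
Ahr, chr6:57998902-57999151, minus strand: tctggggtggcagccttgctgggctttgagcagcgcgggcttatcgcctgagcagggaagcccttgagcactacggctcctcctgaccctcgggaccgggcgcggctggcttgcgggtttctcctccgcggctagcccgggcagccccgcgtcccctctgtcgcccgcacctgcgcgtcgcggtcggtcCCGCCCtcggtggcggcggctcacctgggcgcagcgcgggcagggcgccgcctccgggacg
Arnt, chr2:185686453-185686702, plus strand: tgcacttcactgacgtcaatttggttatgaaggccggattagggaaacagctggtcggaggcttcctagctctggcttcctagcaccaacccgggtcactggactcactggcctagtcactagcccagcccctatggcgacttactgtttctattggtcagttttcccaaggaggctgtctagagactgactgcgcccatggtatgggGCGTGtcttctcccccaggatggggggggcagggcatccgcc
The Ahr window held 1 GC box, on the reverse strand at -61 to -56 from the start, and no copy of the other 3 motifs. The Arnt window held 1 GCGTG, on the forward strand at -42 to -38, and no copy of the other 3. Of 33469 RefSeq rat promoter windows of this length, 30.5% held GGGCGG, 25.9% GCGTG, 16.6% ACGTG and 12.9% TATAAA. The Ahr window was 75.2% G and C, above 96.7% of the windows, and that of Arnt 57.6%, against a median of 51.2%. A match is only a match of letters, and the absence of one says nothing of bases outside the window.

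Values are log2 expression values as deposited. Array medians ran from 3.72 to 3.99 in pool 1 and from 3.48 to 3.78 in pool 2. Of 9 hepatocyte markers, 8 had a probe set, and their mean per array was 10.27 to 10.98. The mean per array was 4.53 to 5.10 over the 5 macrophage markers measured (Kupffer cells included), 3.13 to 4.43 over 3 endothelial, 4.16 to 4.75 over 6 stellate and fibroblast and 3.77 to 5.18 over 3 cholangiocyte markers, so the defining genes of the labelled cell type were high on every array. In each of these other lists, 1 gene lay below 3.71, the median of all values, on every array. A pair of arrays, both of pool 2, stood apart. The one labelled PCB 126 -12 had Cyp1a1 at 10.8, against 3.21 in pool 1 and 7.91 at the next dose of pool 2, and Cyp1a2 and Cyp1b1 at 9.21 and 9.14, against 4.14 and 3.78 at the next dose. The dose on its label is therefore in doubt, whether it is right was not tested, and every value given below for PCB 126 -12 of pool 2 is that of the array so labelled. The other, labelled PCB 126 -5, had the highest array median of its pool, 3.78. TCDD -10 of pool 1 also had the highest median of its pool, 3.99. Its mean r with the other arrays of its pool, 0.946, was the lowest of all arrays. This array was kept, and left out only where each array was left out in turn. The main PCB 126 results on the members and on the AHR battery are given with and without the pair of pool 2. A bulk array cannot tell fewer cells of a type from less RNA per cell.

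Of the 4 Ahr probe sets, AF082124_s_at and AF082125_s_at rose with the dose of TCDD, and AF082126_at and U04860_at did not pass the test with either chemical. At the 2 highest doses AF082124_s_at was 2.33-fold above vehicle with TCDD and 1.86-fold with PCB 126. For AF082125_s_at, which lay below the middle of the array in vehicle, no fold is given, and its calls against vehicle were lost when no filter on low values was set. The estimated rise of both per decade of PCB 126 was smaller and did not pass the test across all probe sets. The difference between the slopes of the 2 chemicals was not called for either. Without the 2 arrays that stood apart the PCB 126 slopes were of the size seen with TCDD. AF082125_s_at then passed in the fit with the filter, which it entered only through its high arrays. No value without the filter is given for this, and the 2 arrays were chosen after seeing the data. Neither Arnt probe set passed the test with either chemical, and their slopes were near 0. As deposited, all 6 probe sets were lower in pool 2 than in pool 1, in a comparison that called 79.8% of all probe sets (39.7% lower), and U61184_at of Arnt turned to 0.10 higher in pool 2 once the array median was subtracted.

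AF082124_s_at lay between 3.89 and 6.08 and had a median rank at 67.8% of its array's values. In pool 1 it was 5.0 in vehicle and, with rising TCDD, 4.96 (-14), 5.23 (-12), 5.07 (-10), 6.08 (-8) and 6.04 (-6.5). With PCB 126 in pool 1 it was 4.64 (-12), 5.19 (-10), 5.98 (-8), 5.86 (-6) and 5.79 (-5). In this pool the arrays at -8 and above lay apart, from 5.79 to 6.08, with no overlap with vehicle and the lower doses, from 4.64 to 5.23. In pool 2 it was 3.89 in vehicle and, with TCDD, 4.53 (-14), 4.54 (-12), 4.37 (-11), 4.87 (-10), 5.52 (-9), 5.52 (-8) and 5.02 (-6.5). With PCB 126 in pool 2 it was 4.47 (-12), 4.55 (-11), 4.56 (-10), 4.89 (-9), 4.59 (-8), 4.86 (-6) and 4.85 (-5). The vehicle array of pool 2 was the lowest of all, the 3 TCDD arrays at -9 and above (5.02 to 5.52) were the highest of this pool, and the 3 PCB 126 arrays at -8 and above (4.59 to 4.86) exceeded the arrays at -11 and below (up to 4.55) by little. How many of all probe sets separate in this way was not counted in either pool, so these gaps are a description and not a test.

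AF082125_s_at moved over a wider range, from 1.74 to 5.14, or from rank 4.07% to rank 71.8% of the array. In pool 1 it was 2.73 in vehicle and, with TCDD, 1.74 (-14), 3.20 (-12), 4.42 (-10), 4.97 (-8) and 4.87 (-6.5). With PCB 126 in pool 1 it was 3.01 (-12), 2.96 (-10), 4.59 (-8), 4.88 (-6) and 5.14 (-5). At -10 in pool 1 this probe set was thus already high with TCDD and still low with PCB 126, while AF082124_s_at was 5.07 and 5.19 there. The TCDD value rests on 1 array, the one with the lowest mean r with its own pool. In pool 2 it was 1.93 in vehicle and, with TCDD, 2.33 (-14), 2.69 (-12), 2.23 (-11), 3.11 (-10), 3.72 (-9), 4.46 (-8) and 2.81 (-6.5). With PCB 126 in pool 2 it was 3.12 (-12), 2.62 (-11), 2.63 (-10), 3.17 (-9), 2.78 (-8), 3.52 (-6) and 3.39 (-5). In pool 2 the groups overlapped: the highest TCDD dose fell back to 2.81 and the array labelled PCB 126 -12, one of the pair that stood apart, was above 3 of the 6 others of PCB 126. This probe set exceeded the filter value of 3.71 on 8 of 26 arrays and on 0 of the 2 vehicle arrays, so it entered the tests only through the arrays where it was high, and its low values lie below the middle of the array. Its TCDD trend and its high-dose differences from vehicle are therefore also given from a fit of all probe sets, with no filter. Its other limma results, among them single doses, slopes within pools and the PCB 126 trend, rest on the fit with the filter.

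**Figure D1:**
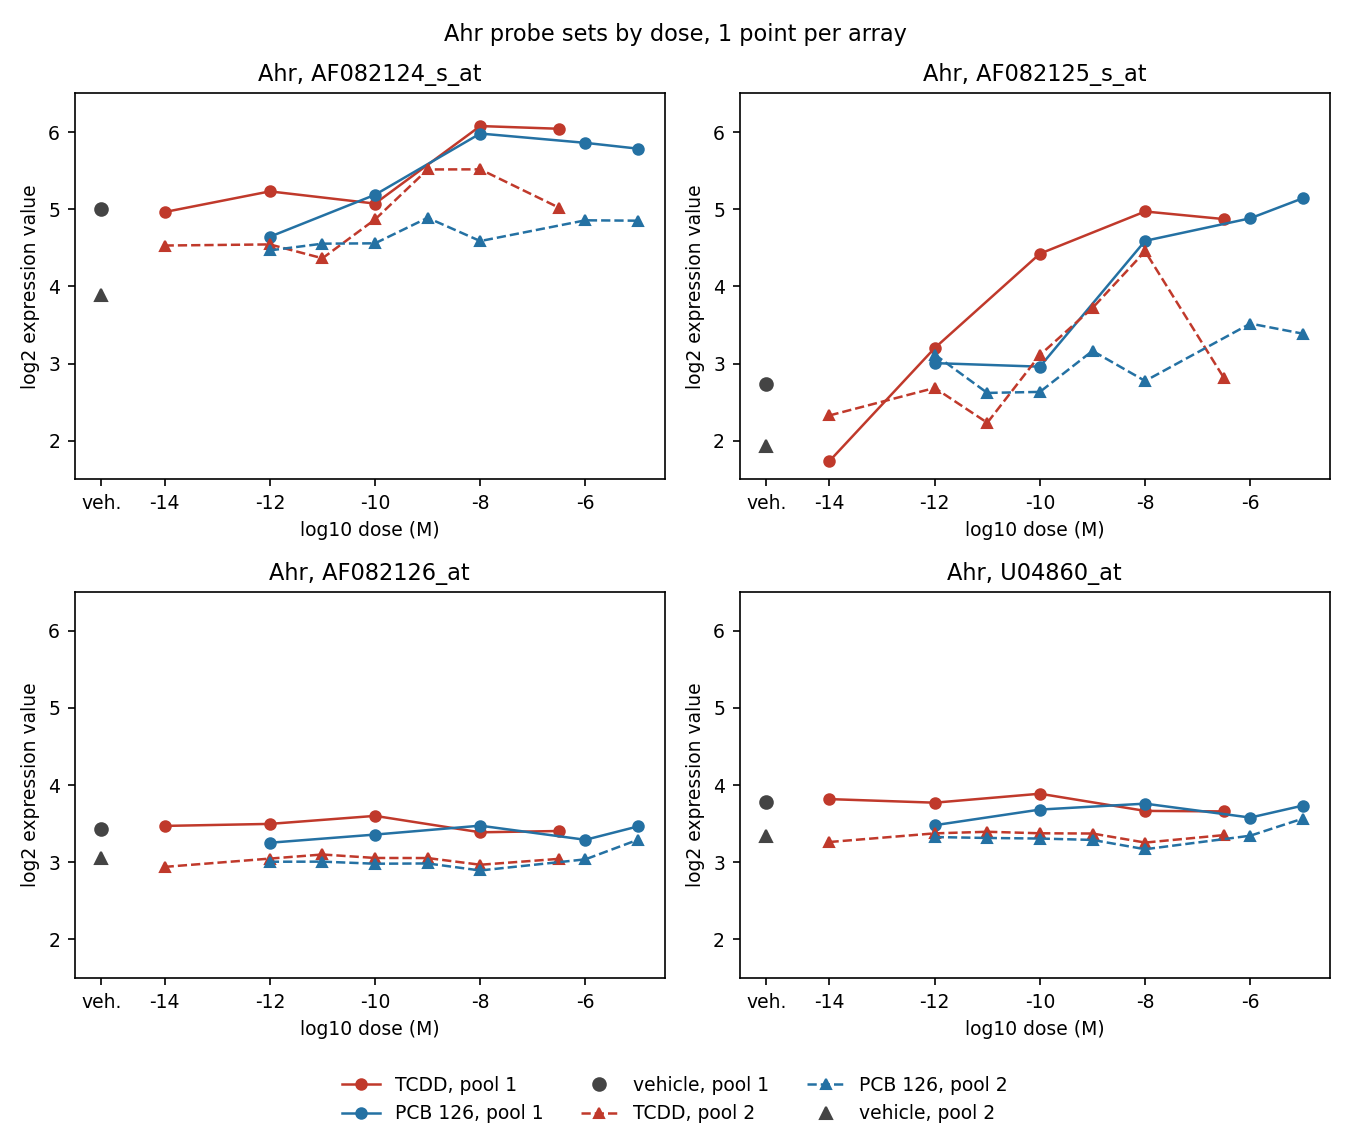
Log2 expression value of each Ahr probe set (vertical axis) against log10 molar dose (horizontal axis, vehicle at the left), 1 point per array, TCDD in red, PCB 126 in blue, vehicle in grey, pool 1 as circles with solid lines and pool 2 as triangles with dashed lines. AF082124_s_at and AF082125_s_at climb from 5.0 and 2.73 in vehicle to 6.08 and 4.97 at TCDD -8 in pool 1, while AF082126_at and U04860_at stay within 2.89 to 3.60 and 3.17 to 3.89.

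With TCDD, AF082124_s_at rose by 0.14 ± 0.03 log2 per decade of dose (SE, 12 arrays of TCDD; limma, Benjamini-Hochberg adjusted p = 0.0143 over 5197 probe sets). AF082125_s_at rose by 0.30 ± 0.06 per decade (adjusted p = 0.00969, limma). In the fit with no filter, which does not choose probe sets by their high arrays, the adjusted p was 0.0208 for AF082124_s_at and 0.0207 for AF082125_s_at (limma). In this trend 3.10% of all tested probe sets were called, 1.64% of them higher. In an exact permutation test that reordered the TCDD arrays within their pool (604800 orders, two-sided; 12 such tests were made, for 6 probe sets and both chemicals), the p-values were 0.00752 and 0.00585. Both calls of the trend were lost without 1 array, TCDD -14 of pool 1, with slopes of 0.14 (adjusted p = 0.0521, limma) and 0.23 (adjusted p = 0.0870).

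With PCB 126 the slope of AF082124_s_at was 0.11 ± 0.03 log2 per decade (limma, adjusted p = 0.0646) and that of AF082125_s_at 0.21 ± 0.07 (adjusted p = 0.0740), while 4.25% of all probe sets were called. These do not pass 0.05 after adjustment. The exact permutation p-values of the same slopes, not adjusted over all probe sets, were 0.00379 and 0.00479. Without the 2 arrays that stood apart the slopes were 0.14 (limma, adjusted p = 0.0991) and 0.30 (adjusted p = 0.0489). AF082125_s_at thus passed without these arrays, in the fit with the filter, which it entered only through its high arrays. These arrays were chosen after seeing the data. The exact permutation p-values without them were 0.0167 and 0.00174 (10 arrays, 14400 orders), or 0.0502 and 0.0208 adjusted over the 12 slope tests, against 0.0226 for both with all arrays.

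Against vehicle, the mean of the 2 highest TCDD doses was higher by 1.22 ± 0.23 log2 for AF082124_s_at (limma, adjusted p = 0.00856) and by 1.95 ± 0.46 for AF082125_s_at (adjusted p = 0.0472), and 2.25% of all probe sets were called. For the 2 highest PCB 126 doses the differences were 0.89 ± 0.23 (adjusted p = 0.0452, limma) and 1.90 ± 0.46 (adjusted p = 0.0420), with 3.04% called. With no filter the calls of AF082125_s_at were lost (limma, adjusted p = 0.155 and 0.152), as was that of AF082124_s_at with PCB 126 (adjusted p = 0.0590), so of these 4 the call of AF082124_s_at with TCDD alone held there (adjusted p = 0.0106). Both chemicals are set against the same 2 vehicle arrays. The vehicle array of pool 2 was the lowest array for AF082124_s_at, and without it its differences were 1.01 (limma, adjusted p = 0.174) with TCDD and 0.69 (adjusted p = 0.427) with PCB 126. For AF082125_s_at the differences without either vehicle array ran from 1.85 to 1.99 with no call (adjusted p = 0.211 to 0.252, limma). These calls lie near the threshold: leaving out 1 array at a time ended that of AF082125_s_at with TCDD in 15 of 26 cases, and with PCB 126 those of AF082124_s_at in 14 and AF082125_s_at in 12. Without the 2 arrays that stood apart, the PCB 126 differences were 0.93 (limma, adjusted p = 0.0712) and 2.12 (adjusted p = 0.0509).

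Among the 14 single doses set against vehicle, TCDD -8 was called for both probe sets, by 1.35 ± 0.26 log2 for AF082124_s_at (limma, adjusted p = 0.0130) and 2.38 ± 0.53 for AF082125_s_at (adjusted p = 0.0355), with 2.12% of all probe sets called. The call of AF082125_s_at at TCDD -8 rests on the fit with the filter. At no other dose did a member pass. The F test over all 14 doses gave no call for a member (adjusted p = 0.0902 for AF082124_s_at and 0.176 for AF082125_s_at, limma), where 2.39% of all probe sets were called. In order of the group mean over the 11 groups that both pools share, AF082124_s_at ran from vehicle (4.45 ± 0.79, SD, n = 2) through PCB 126 -12 (4.56) up to TCDD -6.5 (5.53) and TCDD -8 (5.80 ± 0.40). AF082125_s_at ran from TCDD -14 (2.03 ± 0.42, SD, n = 2) and vehicle (2.33) up to PCB 126 -5 (4.27) and TCDD -8 (4.71 ± 0.36). For each of the 6 probe sets, the ranges of all 10 neighbouring pairs in this order overlapped. Each range and SD spans 1 array of each pool and so includes the pool difference. The overlap therefore cannot decide whether neighbouring groups differ.

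TCDD and PCB 126 share the receptor and differ in structure as a dioxin and a biphenyl. The slopes of TCDD minus PCB 126 differed by 0.04 log2 per decade (95% confidence interval -0.06 to 0.13) for AF082124_s_at and by 0.10 (-0.09 to 0.29) for AF082125_s_at, with no call (limma, adjusted p = 0.788 and 0.705). Over the whole array this comparison called 0 of 5197 probe sets after adjustment in limma, with 342 at an unadjusted p under 0.05. At the 5 doses given of both, from -12 to -8, no difference between the chemicals was called for any member, while 2.62% of all probe sets were called at -11, 0.0385% at -10 and 0 at the 3 others. The share at -10 is 2 probe sets, a count that ran from 0 to 885 when 1 array was left out, the latter without TCDD -10 of pool 2, and it moved by over 1.5 times in 10 of 26 cases. At -12 the differences of AF082124_s_at and AF082125_s_at were 0.33 and -0.12 with all arrays, and 0.64 and 0.39 without the 2 arrays that stood apart, with no call (limma, adjusted p = 0.535 and 0.853). The widest for AF082124_s_at was 0.63 at -9 (-0.16 to 1.41), from 1 array each. For AF082125_s_at the difference was 1.03 at -8 (-0.12 to 2.18; limma, adjusted p = 1.00) and 0.97 at -10 (-0.18 to 2.12; adjusted p = 0.348). These intervals include both 0 and differences of more than 1 log2, so they do not show that the chemicals act alike.

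The other Ahr probe sets behaved differently. AF082126_at lay between 3.25 and 3.60 in pool 1 (median 3.43) and between 2.89 and 3.29 in pool 2 (median 3.04), was above the filter value on 0 of 26 arrays, and was therefore tested only in a fit of all probe sets. U04860_at lay between 3.48 and 3.89 in pool 1 (median 3.73) and between 3.17 and 3.57 in pool 2 (median 3.34), and exceeded the filter value on 6 arrays. In neither did the treated arrays separate from vehicle (3.43 and 3.06 for AF082126_at, 3.77 and 3.34 for U04860_at, in pools 1 and 2). With TCDD their slopes were -0.0033 ± 0.0105 and -0.0096 ± 0.0116 log2 per decade, and with PCB 126 0.023 ± 0.011 and 0.021 ± 0.012 (limma, adjusted p from 0.336 to 0.880).

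**Figure D2:**
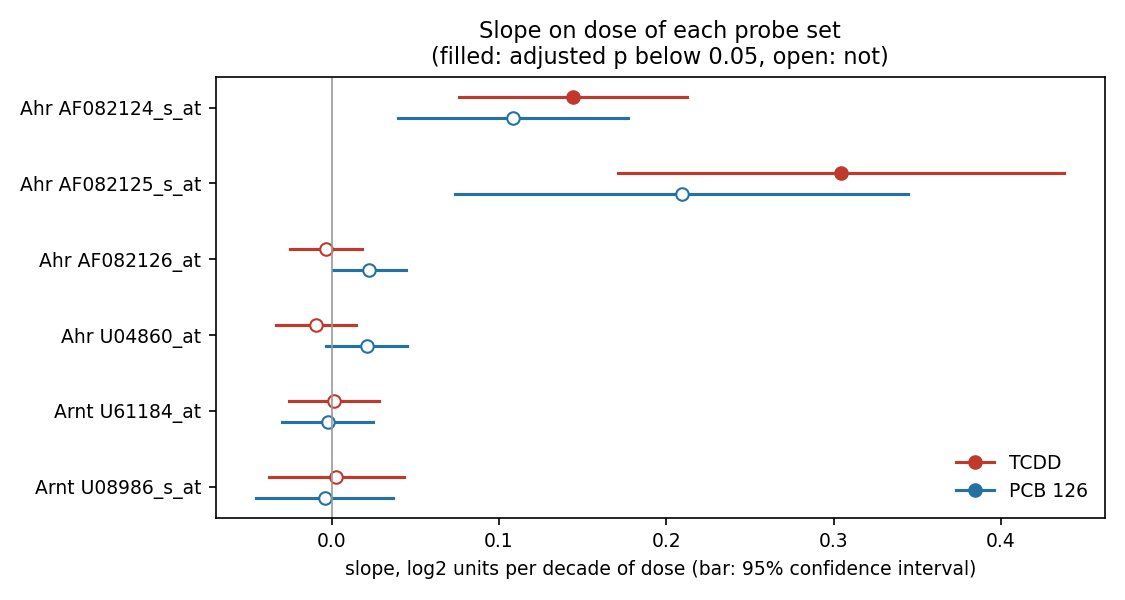
Slope of the log2 value per decade of dose (horizontal axis) for the 6 probe sets (vertical axis), TCDD in red and PCB 126 in blue, with bars for the 95% confidence interval and filled points where the adjusted p was below 0.05. The 2 filled points are the TCDD slopes of AF082124_s_at (0.14) and AF082125_s_at (0.30), and the slopes of the Arnt probe sets lie at 0 within their intervals.

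Because all probe sets are read on the same array, the disagreement between Ahr probe sets was tested within arrays, as the slope of their difference. AF082124_s_at minus U04860_at rose by 0.15 per decade of TCDD and 0.09 of PCB 126, and AF082125_s_at minus U04860_at by 0.31 and 0.18. The same differences from AF082126_at were 0.15 and 0.08, and 0.31 and 0.18. All 8 of these differences passed the exact permutation test (two-sided p from 0.00630 to 0.0275; adjusted over the 14 differences between probe sets of 1 gene p = 0.0324 to 0.0428). These are not 8 separate results, because AF082126_at and U04860_at moved together (r = 0.952 in pool 1 and 0.98 in pool 2). AF082126_at exceeded the filter value on 0 arrays and U04860_at on 6. Whether either reads Ahr transcript above background was not tested. With the array median subtracted, the slopes of AF082124_s_at and AF082125_s_at were close to these differences. They were 0.15 and 0.31 with TCDD, and 0.09 and 0.19 with PCB 126. AF082126_at minus U04860_at also passed with TCDD, by 0.0062 per decade (p = 0.0191, adjusted p = 0.0375, exact permutation test), though not with PCB 126 (0.0015, adjusted p = 0.805), so this pair too differed with TCDD, by a small amount. AF082125_s_at rose more steeply than AF082124_s_at by 0.16 per decade of TCDD and 0.10 of PCB 126, which did not pass (adjusted over the same 14 p = 0.0704 and 0.0671, exact permutation test). Without the 2 arrays that stood apart, the 4 PCB 126 differences from U04860_at and AF082126_at were 0.12 to 0.28 and all passed (adjusted p = 0.0180 to 0.0268, exact permutation test), and AF082124_s_at minus AF082125_s_at with PCB 126, at -0.16, then passed as well (adjusted p = 0.0268). Without TCDD -14 of pool 1 or without TCDD -6.5 of pool 1 none of the 4 TCDD differences passed, nor did any of the 4 PCB 126 differences. The PCB 126 differences use no TCDD array, so their values and unadjusted p were unchanged there. Only the joint adjustment over the 14 differences moved them past the threshold. Without 1 PCB 126 array at -12, -10 or -6 of either pool, -11 of pool 2 or -8 of pool 1, neither PCB 126 difference of AF082124_s_at passed, and without -6 of pool 2 or -8 of pool 1 neither did those of AF082125_s_at.

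AF082126_at and U04860_at followed the level of the whole array instead. Within pool 1 the Pearson r of U04860_at with the array median was 0.968 (Spearman rho 0.973, 11 arrays) and within pool 2 0.968 (rho 0.950, 15 arrays). For AF082126_at it was 0.940 (rho 0.891) and 0.982 (rho 0.936). Each of these had a permutation p of 1e-05 to 0.00056 from 100000 resamples, where 1e-05 is the smallest they can give, and an adjusted p of at most 0.00336 over 54 relations. Without the 2 arrays farthest from the median of the array medians r was 0.844 to 0.964, and arrays of a pool share animals, so these are descriptions of the 2 cultures. For AF082124_s_at r with the array median was -0.183 and 0.0415, and for AF082125_s_at -0.184 and 0.0900. After the array median was subtracted, the SD over the 26 arrays dropped from 0.217 to 0.0649 for AF082126_at and from 0.212 to 0.0600 for U04860_at, but only from 0.576 to 0.511 for AF082124_s_at and from 0.988 to 0.940 for AF082125_s_at.

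**Figure D3:**
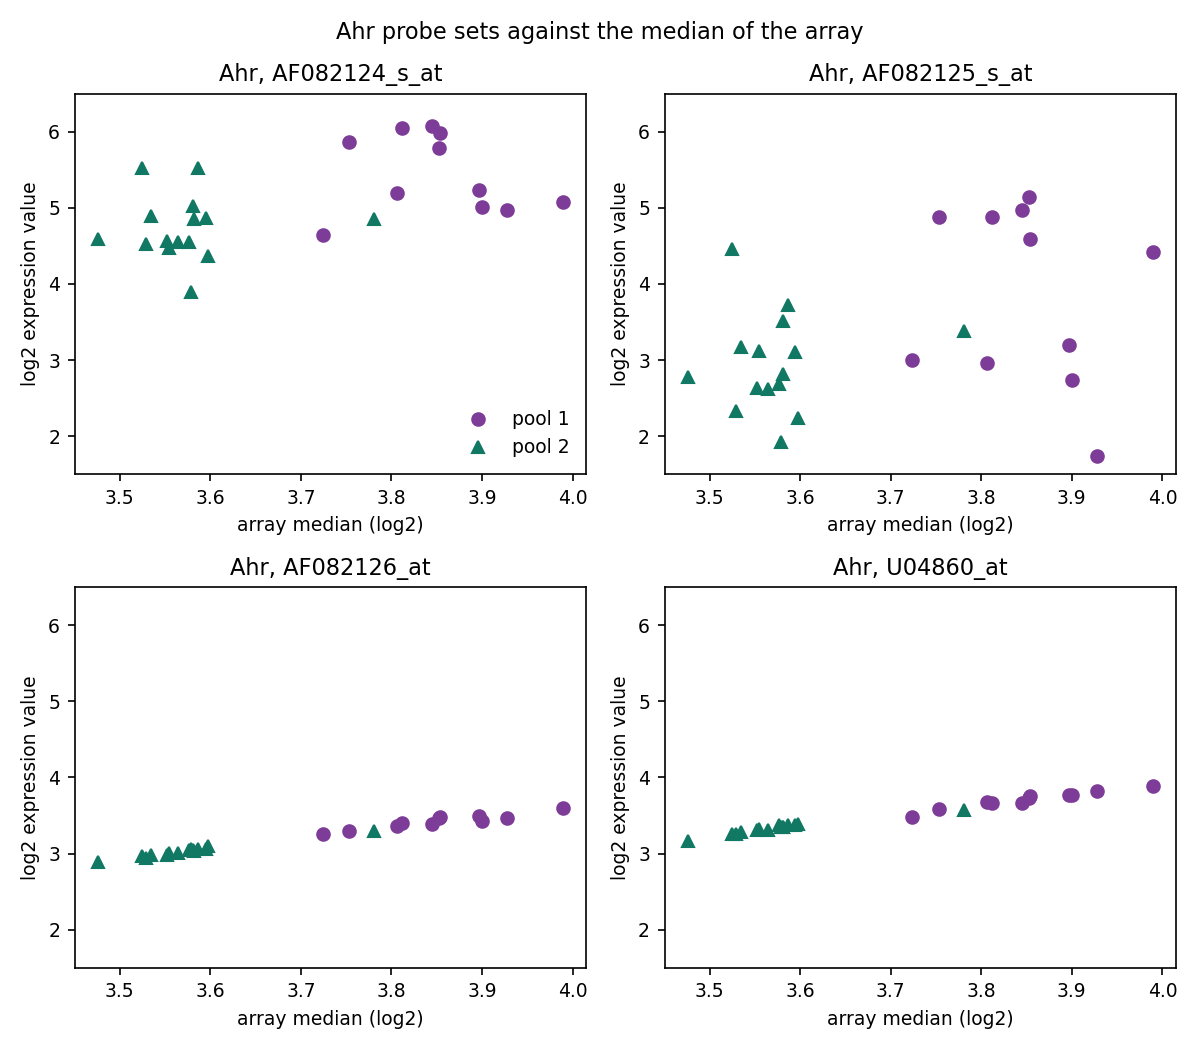
Log2 value of each Ahr probe set (vertical axis) against the median of all probe sets on the same array (horizontal axis, log2), 1 point per array, pool 1 as purple circles and pool 2 as green triangles. AF082126_at and U04860_at follow the array median along a line (r from 0.940 to 0.982 within pools), while AF082124_s_at and AF082125_s_at scatter over it.

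AF082124_s_at and AF082125_s_at moved together. In pool 2 their r was 0.883 over 15 arrays (Spearman rho 0.807; permutation p = 3e-05 and 0.000500, adjusted over 54 relations p = 0.000231 and 0.00336) and 0.788 without the 2 farthest arrays. In pool 1 the values of both fall into a low and a high set of arrays, so no single r is given for it. There the 5 arrays at -8 and above were high in both probe sets, and TCDD -10 was high in AF082125_s_at alone.

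Neither Arnt probe set followed dose. U61184_at lay between 4.43 and 4.64 in pool 1 (median 4.54, vehicle 4.59) and between 4.17 and 4.51 in pool 2 (median 4.38, vehicle 4.24). Its slopes were 0.0015 ± 0.0130 log2 per decade of TCDD and -0.0023 ± 0.0132 of PCB 126 (limma, adjusted p = 0.966 and 0.943). These confidence intervals, -0.025 to 0.028 and -0.029 to 0.025, leave out slopes of the size seen in AF082124_s_at. They are intervals of the array value, at a median rank of 62.5% of the array. How closely that value follows the transcript at this level was not tested. U08986_s_at varied more, from 3.76 to 4.55 in pool 1 (median 4.06, vehicle 4.10) and from 3.36 to 3.78 in pool 2 (median 3.67, vehicle 3.61). It lay near the middle of the array (median rank 52.1%) and exceeded the filter value on 13 of 26 arrays. Its highest array was TCDD -12 of pool 1 and its lowest PCB 126 -8 of pool 2, and its slopes were 0.0027 ± 0.0195 and -0.0043 ± 0.0198 (adjusted p = 0.960 and 0.929, limma). In both probe sets the treated arrays overlapped vehicle, and no dose, high-dose mean or matched dose was called. The 2 Arnt probe sets had r = 0.415 in pool 1 (rho 0.245, adjusted permutation p = 0.444 and 0.811) and 0.670 in pool 2 (rho 0.561, adjusted permutation p = 0.0334 and 0.133), the latter 0.397 without the 2 farthest arrays, so that relation rests on those arrays.

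**Figure D4:**
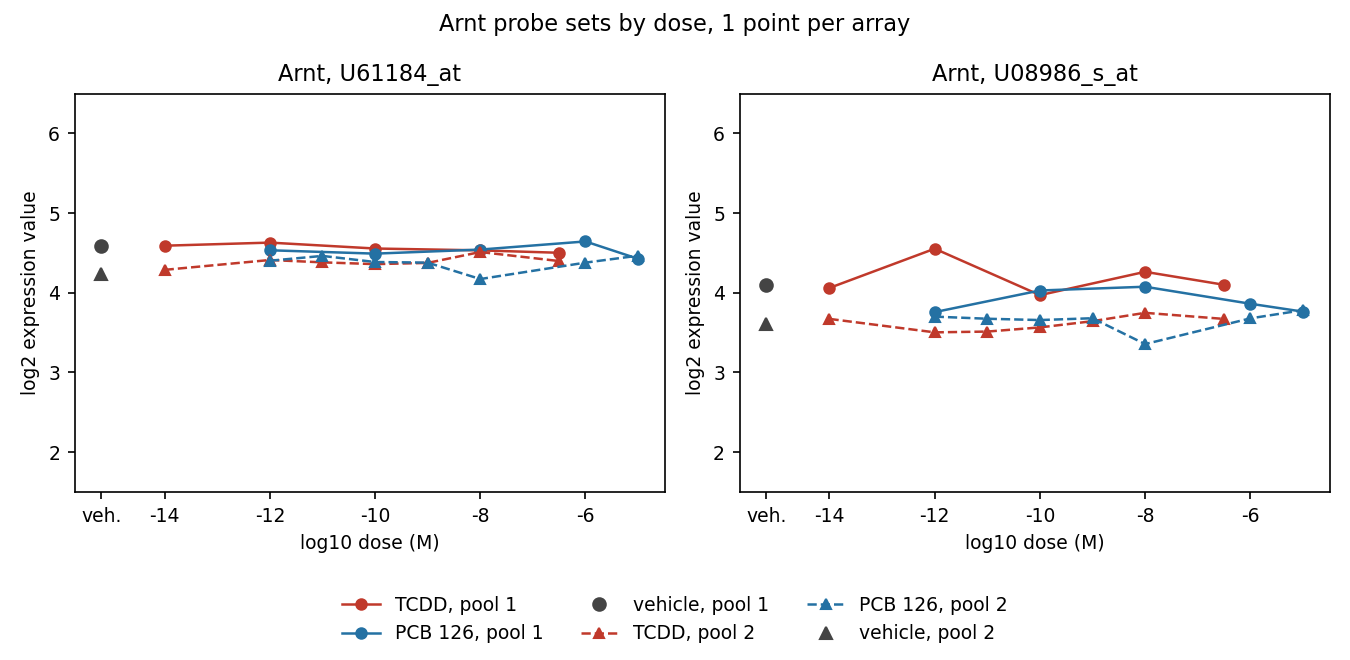
Log2 value of each Arnt probe set (vertical axis) against log10 molar dose (horizontal axis, vehicle at the left), 1 point per array, with colours and marks for chemical and pool as given in the legend. U61184_at stays within 4.17 to 4.64 and U08986_s_at within 3.36 to 4.55, with treated arrays on both sides of vehicle.

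Pool 2 was lower than pool 1 in all 6 probe sets. The fitted difference was -0.70 ± 0.11 log2 for AF082124_s_at (limma, adjusted p = 4.6e-06), -0.88 ± 0.22 for AF082125_s_at (adjusted p = 0.000991), -0.38 ± 0.04 for AF082126_at, -0.37 ± 0.04 for U04860_at, -0.42 ± 0.07 for U08986_s_at and -0.18 ± 0.04 for U61184_at (adjusted p = 0.000920). In this comparison 79.8% of all probe sets were called, 40% higher and 39.7% lower in pool 2, so a call by itself is close to the background. Over the 11 groups that both pools share, pool 2 was lower in 11 of 11 for AF082124_s_at, AF082126_at and U04860_at, in 10 of 11 for both Arnt probe sets and in 9 of 11 for AF082125_s_at (exact sign-flip permutation, two-sided p from 0.000977, the smallest 2048 flips can give, to 0.00977). Relative to the array median, which was lower in pool 2, the differences shrank to -0.43 for AF082124_s_at, -0.61 for AF082125_s_at, -0.11 for AF082126_at, -0.10 for U04860_at and -0.15 for U08986_s_at, and U61184_at changed sign to 0.10 ± 0.04 higher in pool 2 (limma, adjusted p = 0.0343). Each pool is 1 set of 3 animals, so a pool difference is a difference between these 2 cultures.

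Within pools the TCDD slope of AF082125_s_at was 0.43 ± 0.08 log2 per decade in pool 1 (limma, adjusted p = 0.00638, with 4.41% of probe sets called) and 0.19 ± 0.08 in pool 2 (adjusted p = 0.597, with 0.231% called). Both slopes are from the fit with the filter, which this probe set passed only through its high arrays. The difference of -0.24 between the pools was not called (unadjusted p = 0.0451, adjusted p = 0.569, limma), as for all but 0.0577% of probe sets. With PCB 126 its slopes were 0.35 ± 0.09 and 0.09 ± 0.08, a difference of -0.26 (unadjusted p = 0.0405, adjusted p = 1.00, limma). For AF082124_s_at they were 0.16 ± 0.05 and 0.13 ± 0.04 with TCDD, and 0.17 ± 0.05 and 0.05 ± 0.04 with PCB 126. All 8 of these slopes were above 0, but they come from 2 probe sets of 1 gene that moved together on the same arrays of 2 pools. They are not 8 separate results. Without the 2 arrays that stood apart the PCB 126 slopes in pool 2 were 0.17 ± 0.13 for AF082125_s_at and 0.05 ± 0.08 for AF082124_s_at, and the difference between the pools was -0.18 for AF082125_s_at (unadjusted p = 0.271, limma).

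Of the other genes of the pathway, given from lists of known genes, most measured target genes rose and no measured gene of the complex passed the test. Of 10 genes of the AHR battery, the enzymes and regulators induced through AHR, 7 were measured. With TCDD 5 rose (Cyp1a1 by 0.99 ± 0.21, Cyp1a2 by 0.96 ± 0.19, Cyp1b1 by 1.08 ± 0.21, Aldh3a1 by 0.86 ± 0.17 and Nqo1 by 0.40 ± 0.08 log2 per decade; adjusted p from 0.00497 to 0.00969, limma), and 4 rose with PCB 126. The exception with PCB 126 was Cyp1a1 itself (0.73 ± 0.21, adjusted p = 0.0535, limma). Without the array labelled PCB 126 -12 of pool 2, where it was 10.8, its slope was 0.87 ± 0.23 and passed (adjusted p = 0.0339, limma), and without both arrays that stood apart it was 1.01 ± 0.25 (adjusted p = 0.0371), so that 5 of the 7 then rose with PCB 126, with a list median of 1.01. The median slope of the list was 0.86 with TCDD and 0.73 with PCB 126, against -0.0094 and 0.0060 over all probe sets. Ugdh (0.05) and Nfe2l2 (0.09 per decade of TCDD) did not pass with either chemical.

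Of 21 genes of the AHR complex and its cofactors, 9 had a probe set and 6 were measured: Hsp90ab1, which encodes an HSP90 chaperone, the coactivator subunit Med1, the chromatin remodeller Smarca4, the transcription factor Sp1, the cell cycle regulator Rb1 and the ubiquitin-like Nedd8. None of these 6 passed in either trend (limma; the smallest adjusted p was 0.329, for Rb1 with PCB 126), and the list medians were 0.0036 and 0.0165. Hsp90ab1 stayed between 12.2 and 13.3 on all arrays. Of 18 other bHLH-PAS genes, 4 were measured, and Per2, a clock gene, rose with PCB 126 by 0.08 ± 0.02 per decade (adjusted p = 0.0260, limma). Hif1a, whose product also pairs with ARNT, had slopes of 0.0039 ± 0.0233 and -0.0502 ± 0.0235 (adjusted p = 0.951 and 0.272, limma). The clock partner Bmal1 (-0.06 and -0.05) and Arnt2 (-0.01 and -0.01), a close relative of Arnt, did not pass. Of 9 measured xenobiotic and liver transcription factors, Cebpb, a liver-enriched bZIP factor, rose with both chemicals (0.30 ± 0.05 and 0.24 ± 0.05, adjusted p = 0.00335 and 0.0105, limma) and the 8 others did not pass in either trend.

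The values of Cyp1a1 and of the 2 Ahr probe sets were set side by side by dose. In pool 1 Cyp1a1 was 3.45 in vehicle, 9.41 at TCDD -12, 12.3 at -10 and 12.5 at -8. On the same arrays AF082124_s_at was 5.0, 5.23, 5.07 and 6.08, so its rise in this pool lay above -10, where Cyp1a1 was already high. AF082125_s_at was 2.73, 3.20, 4.42 and 4.97, so with TCDD most of its rise in this pool fell at or below -10, which rests on 1 array. At PCB 126 -10 of pool 1 Cyp1a1 was 11.2, with AF082124_s_at at 5.19 and AF082125_s_at at 2.96. With PCB 126 in pool 1, AF082125_s_at was thus still near vehicle where Cyp1a1 was high, and was 4.59 at -8. In pool 2 Cyp1a1 was 3.28 in vehicle, 9.37 at TCDD -12, 12.2 at -10 and 12.4 at -9. There AF082124_s_at went through 3.89, 4.54, 4.87 and 5.52 and AF082125_s_at through 1.93, 2.69, 3.11 and 3.72. The course was not even: at TCDD -14 they were already 4.53 and 2.33, and at -11 they dipped to 4.37 and 2.23. The vehicle array was the lowest of pool 2 for both, so lying above it does not show a rise along with Cyp1a1. Among these doses both were highest at -9. These orders of doses are a description of the arrays and were not tested.

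**Figure D5:**
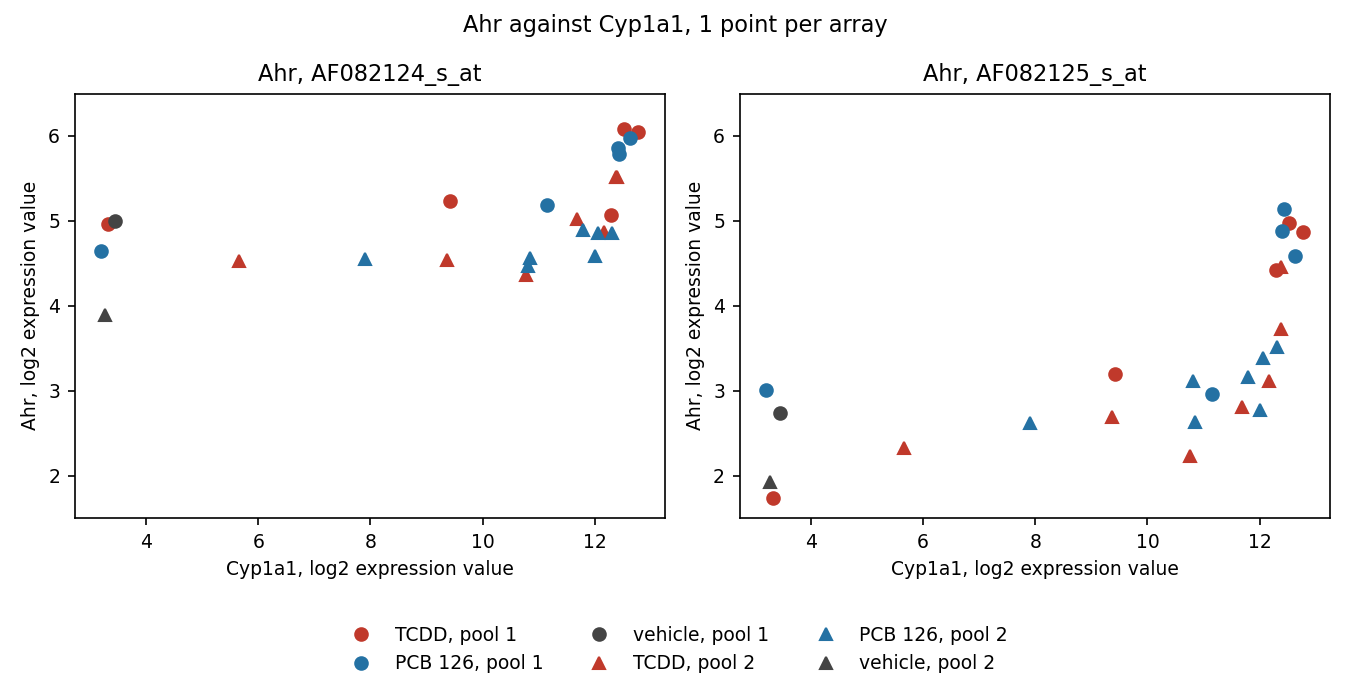
Log2 value of AF082124_s_at (left) and AF082125_s_at (right) on the vertical axis against that of Cyp1a1 on the horizontal axis, 1 point per array, with colours and marks for chemical and pool as given in the legend. In pool 1 AF082124_s_at stays between 4.64 and 5.23 on the arrays at -10 and below and in vehicle, where Cyp1a1 runs from 3.21 to 12.3, and reaches 6.08 above them, while AF082125_s_at is already at 4.42 on the array of TCDD -10.

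Among markers of other cell types, Lyz2, a macrophage lysozyme, fell with both chemicals, by -0.19 ± 0.04 and -0.17 ± 0.04 log2 per decade (limma, adjusted p = 0.00915 and 0.0222). Without the 2 arrays that stood apart its adjusted p with PCB 126 was 0.0501 (limma). The 3 macrophage markers that passed the filter had median slopes of -0.023 with TCDD and 0.052 with PCB 126, so Lyz2 does not stand for its list. None of the 10 other measured markers of these cell types passed in either trend. Of 8 hepatocyte markers, Cps1 fell with TCDD by -0.21 ± 0.05 (adjusted p = 0.0249, limma) and Tat rose with PCB 126 by 0.20 ± 0.04 (adjusted p = 0.00483, limma). Their part in the Ahr result was not tested.

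The probe sets most like each member were taken by Pearson r over the 26 arrays, after each pool's mean was subtracted, among about 4192 other probe sets that name 1 gene, as a description with no test. For AF082124_s_at they were Nrg1, a growth factor of the EGF family (2 probe sets, r = 0.882 and 0.865), Pla2r1, a phospholipase A receptor (0.861), Cyp1b1 (0.855) and Serping1, a complement inhibitor (0.853). For AF082125_s_at they were Cyp1b1 (0.907), Abcc2, an export pump of the bile canaliculus (0.890), Pla2r1 (0.889), Cyp2a1 (0.877) and the protease Ctsc (0.861). The median r was -0.0596 and -0.0688, and 95% of probe sets lay below 0.539 and 0.566. The most opposed were the sulfotransferase Sult1b1 (-0.843) for the former and the urate oxidase Uox (-0.910) for the latter. For AF082126_at and U04860_at the nearest were Lum (0.974) and Ube2d2b (0.967), in a setting where 95% of probe sets still lay below 0.912 and 0.910. For Arnt the highest r was 0.780 (U08986_s_at with Cyp51) and 0.630 (U61184_at with Acadsb), both with probe sets of mean 3.81 and 3.83. The points share arrays, doses and animals.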

How the data were processed

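The values are the authors' deposited log2 expression values, 1 column per array, from -1.43 to 15.0. The submitters' processing notes name GCRMA 2.8.0 and RMA without saying which made this table; values below 0 and the version given for GCRMA alone point to it, but this is an inference. Scanner files were not used here. No count of reads or molecules lies behind an array value, and the number of arrays limits the precision.

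Groups came from the labels (chemical, log10 dose, pool), and 0 columns belonged to no sample. The 59 control probe sets were left out. Of 8740 others, 5197 were tested, whose second-highest value exceeded the median of all values, 3.71; 5 of the 6 members passed, and AF082126_at was tested in a fit of all 8740. limma 3.58.1 in R 4.3.3 (eBayes with trend and robust) fitted a trend model with pool, chemical and a slope on log10 dose in each chemical (20 residual degrees of freedom), a group model with pool and 15 groups (10 residual degrees of freedom) and slopes by pool. P-values were adjusted by Benjamini-Hochberg within each comparison, with 0.05 as the threshold. Pool entered as a block, since the labels tie all arrays of 1 pool to cells of the same 3 animals. Deviations from the group means correlated between groups within a pool with r from 0.461 to 0.892 (55 pairs of groups). Whether the arrays of 1 pool are separate cultures is not stated, and p-values cover only the array-to-array spread. Exact permutation tests were made with numpy 2.4.6 in Python 3.11.15.

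On simulated data of 5197 probe sets, the TCDD trend recovered 92.5%, 95.5% and 100% of slopes of 0.15, 0.3 and 0.6, with 14 false calls. The simulated courses were straight lines with independent normal noise and no lower limit of signal. These shares therefore check the code and are not the power for the measured probe sets. Gene symbols came from the platform table (7006 probe sets name 1 gene) and each listed gene was represented by its kept probe set with the highest mean. Members, lists and tests were chosen with earlier results of these data known. Named genes were all members, the measured genes of the AHR complex, bHLH-PAS and AHR battery lists, up to 4 of the smallest p in other lists, and the 5 probe sets of highest and of lowest r with each member. The alternatives tried were 2 other array scalings, 2 other filters, plain eBayes, no pool block, fewer arrays or doses in the fit, vehicle as the lowest dose, each pool alone, each array left out and, chosen after seeing the data, leaving out 2 arrays that stood apart, or PCB 126 -12 of pool 2 alone.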

Additional observations from a re-analysis of the deposited data

How the results depend on the processing

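Member values were recomputed under 39 settings, each changing 1 choice, which gave 3836 values; 118 values changed sign, 2 of them with a call, 118 lost a call and 34 gained one. Both called reversals were the pool difference of U61184_at under median centring (0.10, limma; 0.091 in the exact sign-flip permutation). AF082124_s_at and AF082125_s_at kept positive slopes and positive high-dose differences under every setting in which they were tested. Under the stricter filter, at 5.71, AF082125_s_at was not tested, since its second-highest value was 4.97. The cause of each change below was not tested.

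Without the replicate block for pool, the TCDD slopes were 0.14 (limma, adjusted p = 0.348) and 0.30 (adjusted p = 0.0831), in the order AF082124_s_at and AF082125_s_at, and the high-dose differences, with the same values of 1.22 and 1.95 for TCDD and 0.89 and 1.90 for PCB 126, were not called. With only that chemical's arrays, which are fewer samples, the TCDD slopes of 0.14 and 0.30 lost and the PCB 126 slopes of 0.11 and 0.21 gained a call. In pool 1 alone the TCDD slopes of 0.16 and 0.43, and in pool 2 alone those of 0.13 and 0.19, were not called. With vehicle as the lowest dose the PCB 126 slopes of 0.12 and 0.23 were called (limma, adjusted p = 0.00586 and 0.00738), and under quantile normalization that of AF082124_s_at, 0.12 (adjusted p = 0.0352). Without 2 arrays that stood apart AF082125_s_at was called with PCB 126 (0.30), in the fit with the filter. The high-dose differences of 0.93 and 2.12 were then not called. Nor was the PCB 126 slope of AF082124_s_at in the exact permutation test (0.13, adjusted p = 0.0502). High-dose differences also lost their call under median centring (2.00 for AF082125_s_at with TCDD, 0.89 and 1.90 with PCB 126), quantile normalization (2.08, 0.89 and 2.03) and no filter (1.95, 0.89 and 1.90).

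Leaving out each array in turn, the TCDD slopes ran from 0.13 to 0.17 and from 0.23 to 0.39, and the PCB 126 slopes from 0.079 to 0.13 and from 0.18 to 0.26. High-dose differences ran from 1.01 to 1.43 and from 1.62 to 2.27 with TCDD and from 0.69 to 1.10 and from 1.66 to 2.14 with PCB 126, and the F statistics from 3.71 to 5.79 and from 3.16 to 6.14. Slopes of the exact permutation tests ran from 0.13 to 0.17 and from 0.22 to 0.40 with TCDD and from 0.069 to 0.12 and from 0.18 to 0.26 with PCB 126. Slope differences from AF082126_at ran from 0.13 to 0.18 and from 0.23 to 0.40 with TCDD and from 0.047 to 0.11 and from 0.16 to 0.23 with PCB 126, and those from U04860_at from 0.14 to 0.19, from 0.23 to 0.41, from 0.054 to 0.11 and from 0.16 to 0.23.

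The high-dose calls rest on 2 vehicle arrays, and AF082125_s_at in vehicle and at low doses lies below the middle of the array.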

Other observations

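Genes known to be induced through HIF factors, which also pair with ARNT, were looked at because ARNT is shared. Of 25 such genes 14 were measured and none passed in either dose trend (limma; median slopes 0.0056 with TCDD and -0.0382 with PCB 126). Egln3, an oxygen-sensing prolyl hydroxylase, was lower at the 2 highest PCB 126 doses than in vehicle by -0.999 ± 0.24 log2 (adjusted p = 0.0368, limma). Between the pools, 10 of the 14 were higher in pool 2, among them the heme oxygenase Hmox1 by 2.59 ± 0.21, the glycolytic enzyme Pgk1 by 1.52 ± 0.17, the peptide hormone gene Adm by 1.43 ± 0.14 and Egln3 by 1.26 ± 0.14, and 1 was lower (Pfkfb3, -0.82 ± 0.10). The list's median pool difference was 0.93 against 0.02 over all probe sets, of which 40% were called higher in pool 2 and 39.7% lower. As deposited, Hif1a differed by -0.37 ± 0.08 and the Arnt probe sets U08986_s_at and U61184_at by -0.42 and -0.18. With the array median subtracted, U61184_at was 0.10 ± 0.04 higher in pool 2 (limma, adjusted p = 0.0343) and U08986_s_at still lower (-0.15).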
